A study of Oryza sativa with 4 samples.

Results

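Gibberellin oxidases are the soluble dioxygenases of the late gibberellin pathway, and 10 rice loci of this family were examined in flag leaf blades of the d1 mutant and its wild type. The members were taken by locus identifier, ignoring case, from the 35667 rows of the deposited gene table. They are 4 gibberellin 20-oxidases (GA20ox1, GA20ox2, GA20ox3 and GA20ox4), 2 gibberellin 3-oxidases (GA3ox1 and GA3ox2) and 4 gibberellin 2-oxidases (GA2ox1, GA2ox3, GA2ox4 and GA2ox6). All 10 were found, each on 1 row. Sums, shares and rankings below cover these listed loci only, and no other locus of the family was read. The names were given with the identifiers from outside the table, which holds no names. In a RefSeq gene table of another rice assembly, 2 of the 10 names, GA20ox2 and GA20ox3, were present, on chromosomes 1 and 7, the chromosomes that their identifiers give.

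The 2 genotypes were d1, which carries the d1-1 allele of RGA1, and the wild type TC65 (WT). RGA1 encodes the alpha subunit of the heterotrimeric G protein, and d1 is a dwarf. Each genotype had 2 libraries, labelled as biological replicates. Plants of both genotypes stood singly in greenhouse pots under 16 h of light, at about 30 °C by day and 25 °C at night, and the labels give their age as 2 months and also as 100 days. The blades were cut where they are widest. The mutant is represented by 1 allele, and the labels used here do not say whether it was backcrossed to TC65 or whether the libraries came from separate plants.

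Gibberellins are growth hormones that promote stem and leaf elongation by triggering the loss of DELLA repressor proteins. A 20-oxidase oxidizes carbon 20 in successive steps to give the precursors, a 3-oxidase adds the hydroxyl group that makes a precursor active, and a 2-oxidase inactivates active hormone or its precursors. In many plants active gibberellin lowers the transcripts of 20-oxidase and 3-oxidase genes and raises those of 2-oxidase genes. GA20ox2 is SD1, the gene whose loss gave semidwarf rice varieties, and GA3ox2 is D18, whose loss causes dwarfism.

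Levels are FPKM, sequenced fragments per unit of transcript length and of mapped library size, with 1 value per genotype that combines its 2 libraries. No value per library was used here, so no spread between libraries, SD or interval can be given. Depth is known only from the labels, at about 40000000 reads of 150 bp per library. Statements of change rest on the test in the authors' deposited table, with a q-value under 0.05 counted as called. That test covered 23672 genes, with a median log2 ratio of d1 over WT of -0.02, while the FPKM sums, 1381426 in d1 and 1144962 in WT, differed by a log2 ratio of 0.27. The deposited q-values of the tested members were smaller than a Benjamini-Hochberg adjustment recomputed over these genes. For GA2ox4 they were 0.000186 as deposited and 0.000882 as recomputed. Over all tested genes, 4569 were called as deposited and 3375 as recomputed. The mutated gene RGA1 was read at 17.3 FPKM in d1 and 20.7 FPKM in WT and did not pass in the authors' deposited table (q = 0.296). This value covers the whole locus, so it does not check the lesion.

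Loci entered from general knowledge as tissue markers were read to check the label. The 5 leaf mesophyll loci stood between 3301 and 35243 FPKM in d1 and between 1757 and 21644 FPKM in WT. Of these, 2 were called higher in d1 in the authors' deposited table, where 7.24% of all tested genes were called higher. Their q-values there were 0.0161 and 0.0162, so neither passed a q-value under 0.01. Both meristem loci were listed at 0 in d1 and at 0.0981 and 0.122 FPKM in WT. The 3 tapetum or anther loci reached at most 0.785 FPKM in d1 and 0.648 FPKM in WT. The 3 dividing-cell loci summed to 6.75 FPKM in d1 and 8.79 FPKM in WT, and none was called. Most of both sums was PCNA, at 6.25 FPKM in d1 and 8.10 FPKM in WT. Cyclin B1 was read at 0.12 FPKM in d1 and 0.41 FPKM in WT. CDKB2, at 0.38 FPKM in d1 and 0.28 FPKM in WT, had its higher value in d1. Of 3 secondary wall loci, all 3 were called lower in d1, with a summed level of 4.17 FPKM in d1 and 13.0 FPKM in WT, where 12.1% of all tested genes were called lower. With the recomputed Benjamini-Hochberg adjustment, or with a q-value under 0.01, 1 of these 3 calls was left.

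Among the gibberellin oxidases, 2 of the 20-oxidases rose and 1 of the 2-oxidases fell in d1. GA20ox1 was 3.24-fold and GA20ox2 1.71-fold higher in d1, and GA2ox4 was 4.47-fold lower. Both GA3ox loci and 3 other members stood at 0.217 FPKM or less in both genotypes and were not tested by the authors. Of the 10 members, 5 were tested, 3 were called (2 higher, 1 lower) and 2 did not pass. In the background of all tested genes, 7.24% were called higher in d1 and 12.1% were called lower. The recomputed Benjamini-Hochberg adjustment, which called 14.3% of tested genes, kept the same 3 members. A q-value under 0.01 (12.0% of tested genes) and a 2-fold minimum (8.98%) each kept GA20ox1 and GA2ox4 and lost GA20ox2. With 5 tested members, counts this small are read as values of single genes.

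**Figure D1:**
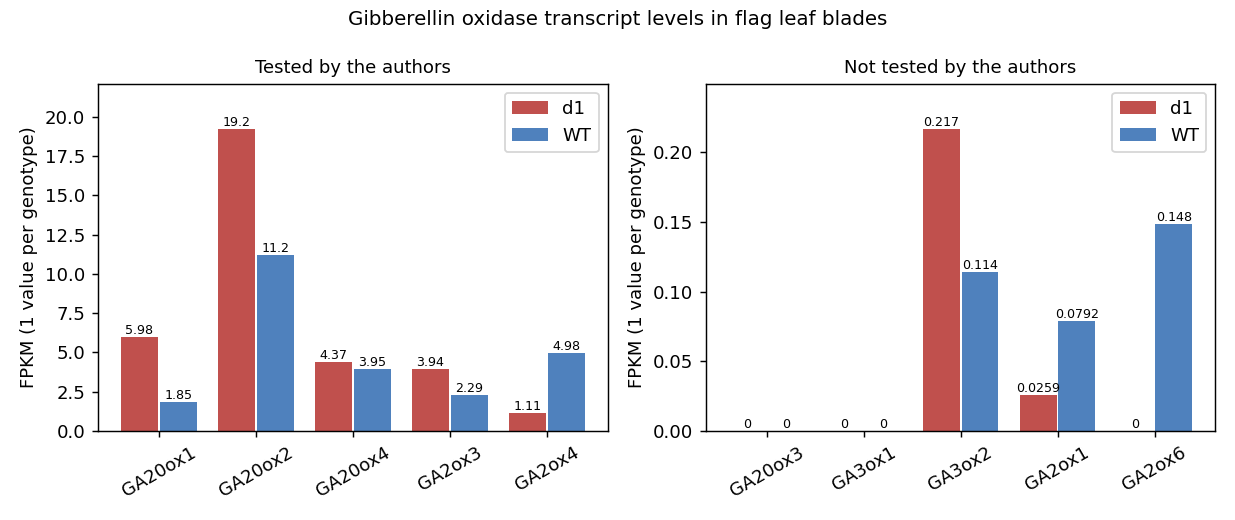
FPKM of the 10 gibberellin oxidases in d1 (red) and WT (blue), 1 value per genotype over 2 libraries and therefore without error bars. The left panel holds the 5 members tested by the authors, where GA20ox2 is highest in both genotypes (19.2 in d1, 11.2 in WT), and the right panel, on its own scale, holds the 5 untested members, all at 0.217 FPKM or less.

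GA20ox2 (OS01G0883800, chromosome 1 by its identifier) was the most abundant member in both genotypes. Its level was 19.2 FPKM in d1, against 11.2 FPKM in WT, and the difference passed in the authors' deposited table (p = 0.00405, q = 0.0109). The log2 ratio was 0.78, or 0.51 if both FPKM sums are set equal. Ratios at least this high were found at 6.95% of tested genes. In the band of 10 to 100 mean FPKM, to which this gene belongs, 8.25% of tested genes were called higher in d1. The 5 leaf mesophyll loci had log2 ratios between 0.63 and 1.35, all above 0 also with equal FPKM sums, and their part in the rise of GA20ox2 and GA20ox1 was not tested. GA20ox2 made up 55.1% of the summed FPKM of the 10 members in d1 and 45.6% in WT.

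GA20ox1 (OS03G0856700, chromosome 3) had the highest ratio of the tested members. This 20-oxidase was read at 5.98 FPKM in d1, against 1.85 FPKM in WT, a log2 ratio of 1.69 (1.42 with equal FPKM sums) that passed in the authors' deposited table (p = 0.0001, q = 0.000359). Ratios at least this high were found at 2.06% of tested genes. In the band of 1 to 10 mean FPKM, 5.56% of tested genes were called higher in d1 and 12.8% were called lower. GA20ox1 had rank 2 among the 10 members by level in d1 and rank 5 in WT. The level of GA20ox1 relative to GA20ox2, which no scaling between genotypes can alter, was 0.311 in d1 and 0.165 in WT.

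GA20ox4 (OS05G0421900, chromosome 5), another 20-oxidase, was read at 4.37 FPKM in d1 and 3.95 FPKM in WT. It did not pass in the authors' deposited table (p = 0.697, q = 0.800), and its log2 ratio of 0.15 became -0.12 with equal FPKM sums, so the data give it no direction. Its level had rank 3 among the members in both genotypes. GA20ox1 therefore stood above GA20ox4 in d1, at a ratio of 1.37, and below it in WT, at a ratio of 0.468. GA20ox3 (OS07G0169700, chromosome 7) was listed at 0 in both genotypes. The 4 listed 20-oxidase loci summed to 29.59 FPKM in d1 and 17.02 FPKM in WT, a log2 ratio of 0.80, or 0.53 with equal FPKM sums.

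The 3-oxidases were barely detected. GA3ox2 (OS01G0177400, chromosome 1) was read at 0.217 FPKM in d1 and 0.114 FPKM in WT, and GA3ox1 (OS05G0178100, chromosome 5) was listed at 0 in both. Neither was tested by the authors, so no difference is reported for the step that makes active hormone. Of all rows of the table, 32.5% stood at or below the level of GA3ox2 in d1 and 27.3% at or below its level in WT.

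GA2ox4 (OS05G0514600, chromosome 5) was the 1 member called lower in d1. This 2-oxidase was read at 1.11 FPKM in d1, against 4.98 FPKM in WT. The log2 ratio was -2.16, or -2.43 once the FPKM sums are equalized, and the difference passed in the authors' deposited table (p = 5e-05, q = 0.000186). The p-value is the smallest in that table and is shared by 1342 genes. Ratios at least this low were found at 2.76% of tested genes. GA2ox4 had rank 5 among the members by level in d1 and rank 2 in WT, after GA20ox2. It made up 3.19% of the members' summed FPKM in d1 and 20.2% in WT. The 3 secondary wall loci had log2 ratios between -2.14 and -0.84, with 3 calls as deposited and 1 with the recomputed adjustment, and their part in the fall of GA2ox4 was not tested. In bulk tissue, fewer cells of a type and less RNA per cell cannot be told apart.

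GA2ox3 (OS01G0757200, chromosome 1), also a 2-oxidase, had its higher value in d1, at 3.94 FPKM, against 2.29 FPKM in WT. Its log2 ratio of 0.78 (0.51 with equal FPKM sums) was close to that of GA20ox2, but it did not pass in the authors' deposited table (p = 0.0227, q = 0.0510). GA2ox3 and GA2ox4 thus had ratios of opposite sign. The level of GA2ox4 relative to GA2ox3 was 0.283 in d1 and 2.17 in WT. The most abundant of the listed 2-oxidases was thus GA2ox3 in d1 and GA2ox4 in WT. The difference between the ratios of these genes was not tested, since no value per library was used.

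The remaining listed 2-oxidases were near 0. GA2ox1 (OS05G0158600, chromosome 5) was read at 0.0259 FPKM in d1 and 0.0792 FPKM in WT. GA2ox6 (OS04G0522500, chromosome 4) was listed at 0 in d1 and stood at 0.148 FPKM in WT. Neither was tested by the authors. The 4 listed 2-oxidase loci summed to 5.08 FPKM in d1 and 7.50 FPKM in WT, a log2 ratio of -0.56. This direction rested on GA2ox4, because the other 3 loci summed to 3.97 FPKM in d1 and 2.52 FPKM in WT, a log2 ratio of 0.65.

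**Figure D2:**
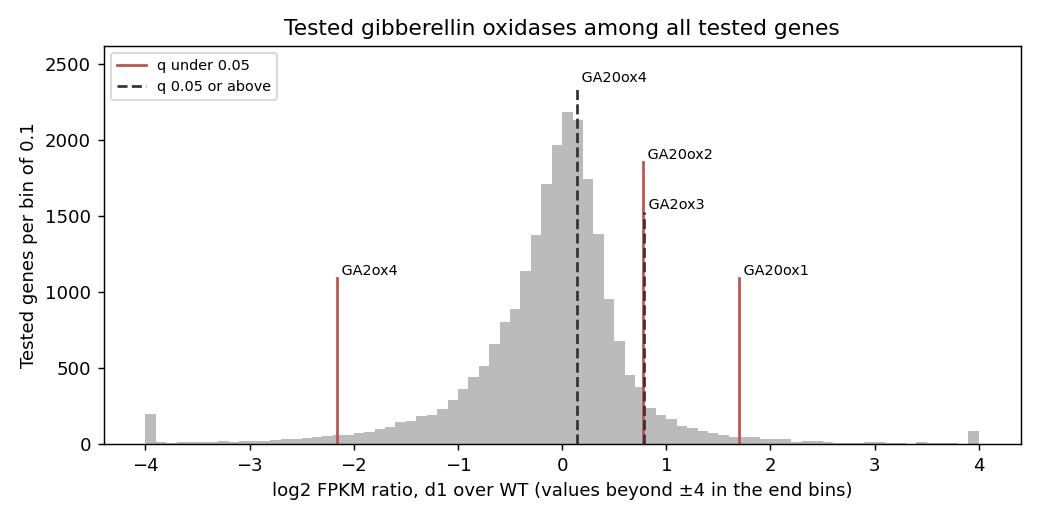
Log2 FPKM ratios, d1 over WT, of all 23672 tested genes in bins of 0.1 (grey bars), with lines at the 5 tested gibberellin oxidases. The outermost bins collect all genes beyond 4 in either direction, including 97 listed at 0 in d1 only and 45 listed at 0 in WT only. The line heights carry no value. GA20ox1 (1.69) and GA2ox4 (-2.16) lie in the right and left tails, GA20ox2 and GA2ox3 share a position near 0.78, and GA20ox4 (0.15) lies within the peak.

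Set against each other within a genotype, the listed 20-oxidases exceeded the listed 2-oxidases in both. The ratio of their summed FPKM was 5.82 in d1 and 2.27 in WT, a 2.57-fold difference that is independent of scaling between the genotypes and has no error estimate. Both sums entered this difference, as the 20-oxidase sum was higher in d1 (log2 ratio 0.80) and the 2-oxidase sum lower (-0.56). Without GA2ox4, left out after seeing the data, the ratio was 7.45 in d1 and 6.75 in WT, a 1.10-fold difference. The remaining 2-oxidases, mostly GA2ox3, then summed higher in d1, as the 20-oxidases did. Over the 5 tested members, 4 log2 ratios were above 0 (3 with equal FPKM sums) and 1 was below, with a median of 0.78, or 0.51 with equal FPKM sums. The median over all tested genes, without equal FPKM sums, was -0.02. Equal FPKM sums lower it by 0.27, as they do every ratio. Without that scaling, 51.2% of tested genes had log2 ratios of -0.03 or higher and 26.3% had 0.25 or higher. In d1 the order of the detected members was GA20ox2, GA20ox1, GA20ox4, GA2ox3 and GA2ox4, followed by GA3ox2 and GA2ox1 at low values. In WT it was GA20ox2, GA2ox4, GA20ox4, GA2ox3 and GA20ox1, followed by GA2ox6, GA3ox2 and GA2ox1. Whether neighbours in either order differ beyond their spread is unknown.

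The rest of the gibberellin pathway was read at 11 further loci, entered from general knowledge and not checked against an annotation. Of these, 10 were tested, 1 was called higher in d1 and 9 did not pass, with no call in the other direction, against 7.24% of all tested genes called higher and 12.1% called lower. A count of 1 in 10 is near that background and is read as the value of 1 gene. The locus called was OS06G0110000, entered as ent-kaurenoic acid oxidase (KAO), the enzyme that delivers the substrate of the 20-oxidase branch. It was read at 13.1 FPKM in d1, against 8.29 FPKM in WT, a log2 ratio of 0.66 (0.39 with equal FPKM sums) that passed in the authors' deposited table (p = 0.0023, q = 0.00650). The other 3 loci entered as early synthesis steps did not pass, although all 4 of this group had ratios above 0 (3 of 4 with equal FPKM sums). The lowest log2 ratio of the 4 was 0.25, and 26.3% of all tested genes had one at least this high.

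None of the 5 tested loci entered as receptor or signalling genes was called in the authors' deposited table (Cuffdiff), and none had an unadjusted p-value under 0.05 there. Their log2 ratios lay between -0.03 and 0.31. The most abundant, OS03G0707600, entered as the DELLA repressor SLR1, was read at 66.9 FPKM in d1 and 54.1 FPKM in WT (q = 0.185 in the authors' deposited table). Outside these groups, OS05G0482400, entered as the epoxidase EUI1, was read at 0.787 FPKM in d1 and 0.688 FPKM in WT. Its log2 ratio of 0.19 did not pass (q = 0.821 in the authors' deposited table). The median log2 ratio of the 10 tested loci was 0.25, or -0.03 with equal FPKM sums. Over all tested genes the median was -0.02 without equal FPKM sums. That scaling lowers every log2 ratio by 0.27, so it leaves the distance between these medians unchanged. Across both sets of loci, those called were KAO, GA20ox1, GA20ox2 and GA2ox4.

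**Figure D3:**
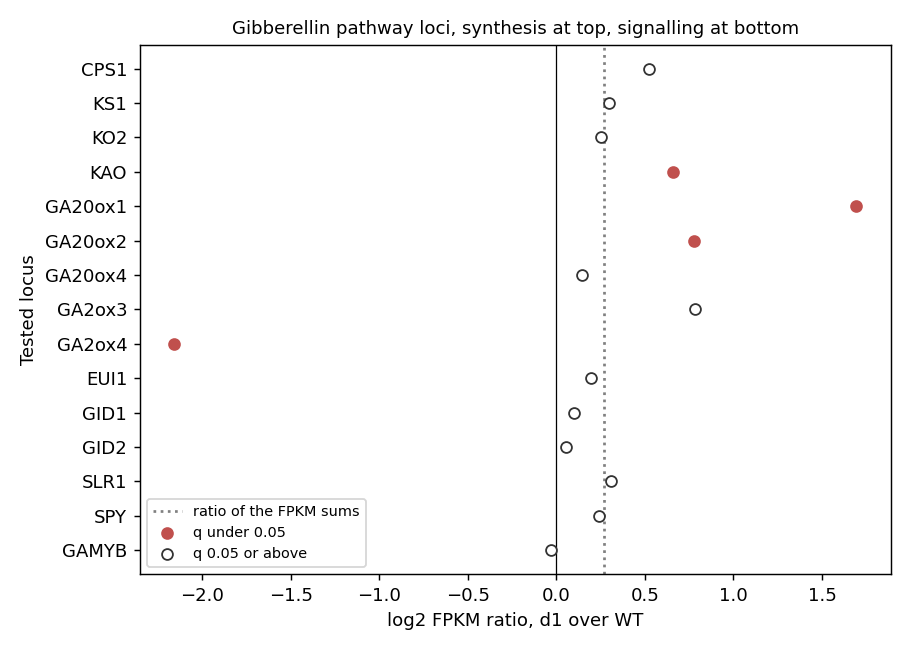
Log2 FPKM ratio, d1 over WT, of the 15 tested gibberellin pathway loci. From top to bottom they run from early synthesis through the 20-oxidases, the 2-oxidases and the epoxidase locus EUI1 to signalling. Filled points mark q under 0.05 in the authors' deposited table. The dotted line marks the ratio of the FPKM sums (0.27). The called loci KAO, GA20ox1 and GA20ox2 lie to the right of it, as do GA2ox3, CPS1, SLR1 and KS1, which did not pass, and GA2ox4 lies alone on the far left.

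The position of the members was read from their identifiers, since the table gives no coordinates. Chromosome 5, which also carries RGA1, held 4 of the 10, of which GA2ox4 was the 1 called. GA2ox4 lay 1059 listed loci after RGA1 and GA20ox4 lay 467 after it, while GA3ox1 lay 598 and GA2ox1 711 before it. Among the 10 tested loci nearest to GA2ox4, 5 on each side, 1 was called, in the same direction. Around GA20ox2, 2 of 10 were called, 1 in each direction. Around GA20ox1, 5 of 10 were called, 4 of them higher in d1 like GA20ox1 itself. Of all tested genes, 19.3% were called in either direction, 7.24% higher and 12.1% lower. Around the members that were not called, between 1 and 4 of 10 were called. The untested GA3ox1 had 4 of 10, with 3 of them higher in d1. GA20ox3, also untested, had 4 of 10 with 3 of them lower, and GA2ox1 had 3 of 10, all lower. The tested locus that follows GA2ox4, OS05G0514701, was read at 0.663 FPKM in d1 and 2.67 FPKM in WT and did not pass (q = 0.182 in the authors' deposited table). After GA20ox1 comes OS03G0857000, at 16.8 FPKM in d1 and 9.49 FPKM in WT. It was called higher, like GA20ox1 (q = 0.00890 in the authors' deposited table). After GA20ox2 comes OS01G0883850, at 5.48 FPKM in d1 and 4.07 FPKM in WT, which did not pass (q = 0.548 in the authors' deposited table). The labels do not state whether counting used strand, so reads of overlapping or antisense genes cannot be told apart from those of a member. The part of neighbouring loci in these values was not tested.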

How the data were processed

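RNA-seq of rice flag leaf blades was available as 1 gene table comparing d1 with WT, each with 2 libraries. Per the submitters' processing notes, FastQC, Trimmomatic, TopHat2, Cufflinks and Cuffdiff were used with build IRGSP-1.0. The sources used here give no versions, annotation or scaling between libraries. The authors deposited FPKM values, 1 per genotype, with a test statistic, which is a signed score, a p-value and a q-value per gene. The status column marks 23672 rows as tested and 11994 as not tested.

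Identifiers were matched ignoring case (10002 were in mixed case). Log2 ratios, d1 over WT, were computed from the FPKM columns with Python 3.11.15 and pandas 2.3.3, with no pseudocount and no filter. No ratio against a value of 0 is printed, and tested genes listed at 0 in 1 genotype were counted as beyond any finite ratio in shares and medians over all tested genes. No test across libraries was possible, because the deposited values combine the 2 libraries. The intended count and limma tests were therefore replaced by the authors' deposited test. The Benjamini-Hochberg step used as an alternative was tested on simulated data. Alternatives were a q under 0.01, the recomputed adjustment, a 2-fold minimum, a minimum of 1 FPKM, pseudocounts of 0.1 and 1 FPKM, equal FPKM sums and median centring. All 10 members are named. Of the 11 other pathway loci, those called, the most abundant one not called and EUI1 are named with values. The members and lists were chosen with earlier results of these data known. Sequences and coordinates were not used here.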

Additional observations from a re-analysis of the deposited data

Results flagged for a closer look

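GA3ox2, which the authors did not test and which enters no comparison of single genes, stood at 0.217 FPKM in d1, above its WT value of 0.114 FPKM. Both are far below the level of the tested members, and the difference was not tested. With GA3ox1 listed at 0 in both genotypes, the 3-oxidase sum is GA3ox2 alone.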

How the results depend on the processing

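No paired analysis was possible because each genotype has a single combined FPKM column and replicate numbers appear nowhere in the table. Leaving out a library in turn was not run for lack of columns per library. The members called numbered 3 as reported, with the recomputed Benjamini-Hochberg adjustment and with a minimum of 1 FPKM, and they were the same 3 genes. With a q under 0.01, or with a 2-fold minimum, 2 remained, GA20ox1 and GA2ox4, and GA20ox2 was lost. Under the recomputed adjustment GA20ox2 had an adjusted p of 0.0329 and GA2ox3 one of 0.117. A 2-fold minimum left 0 of the other pathway loci, where KAO had been called by Cuffdiff and 1 of 10 had an unadjusted p-value under 0.05. Over all genes, 2832 were called at a q under 0.01 and 2125 with a 2-fold minimum, in place of 4569. The subfamily log2 ratios were 0.53 (20-oxidases), 0.66 (3-oxidases, 0.93 as reported) and -0.83 (2-oxidases) with equal FPKM sums, and 0.82, 0.94 and -0.54 when centred on the median. Without GA20ox2 the 20-oxidase ratio was 0.84. The 2-oxidase ratio was -2.19 without GA2ox3 and 0.65 without GA2ox4, the last chosen after seeing the data. GA20ox4 turned to -0.12 with equal FPKM sums. No other member with a ratio changed sign under the scalings and pseudocounts tried. With 1 FPKM added, GA20ox1 was at 1.29, GA2ox4 at -1.50 and GA3ox2, which alone makes up the 3-oxidase sum, at 0.13 (0.57 with 0.1 FPKM added). Reads behind an FPKM value are not known, so the counting error of the low members could not be estimated.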
